A study of Mus musculus with 6 samples.

Results

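The 9 genes described here encode ATP-binding cassette (ABC) transporters that carry drugs, their conjugates and bile components out of the hepatocyte: Abcb11, Abcc2, Abcb4, Abcg2 and Abcb1a, and Abcc3, Abcc6, Abcc4 and Abcc1. They were chosen by name as hepatic efflux transporters, with it already known that Abcc3 was higher with esculetin in these data, and all 9 were found among the 55357 genes counted. Liver RNA was sequenced from wild-type male C57BL6/J mice, 8 to 9 weeks old, in 3 vehicle libraries and 3 esculetin libraries, each made from the pooled livers of 2 mice. All mice were gavaged daily for 7 days, received a control diet with 10% of kcal from fat for 4 days and then a high-fat diet with 60% of kcal from fat for 3 days. The vehicle group received 2.5% Tween-80. The esculetin group received esculetin, a coumarin compound, which the study also dissolved in 2.5% Tween-80 for gavage. The sample names give its dose as 180 mg/kg/d and the treatment field as 90 mg/kg/d. The libraries held 27957713 to 34920922 counts, with at most 31889710 in a vehicle library and at least 32883985 in an esculetin library. The 8 hepatocyte markers checked, such as Alb, together had 86607 to 94594 CPM (counts relative to the TMM-normalized library size) in the 6 libraries, and 0 of the 8 were called by the thresholds given with the fold changes, beside 3.13% of all genes tested.

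A hepatocyte has a canalicular membrane that faces the bile and a basolateral membrane that faces the sinusoidal blood, and the ABC transporters of either face use ATP to move their substrates out of the cell. Lipophilic drugs and phenols such as coumarins are first joined to glucuronide, sulfate or glutathione inside the cell, and the conjugates then leave into bile, mainly through MRP2 and BCRP, or into blood, mainly through MRP3 and MRP4. The same canalicular membrane secretes bile salts through BSEP and phosphatidylcholine through MDR2, which together form the bile micelles that carry cholesterol. Several of these genes are known to respond to the nuclear receptors FXR, PXR and CAR and to NRF2.

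The 9 genes lie on 8 chromosomes of GRCm39, and all are protein-coding. Abcb1a, at 8710022 to 8798575 on chromosome 5, and Abcb4, at 8943604 to 9011999, are neighbours on the plus strand, with the paralog Abcb1b between them. Abcc3 (ENSMUSG00000020865) spans 94233874 to 94283823 on the minus strand of chromosome 11. Also on the minus strand lie Abcb11 at 69068544 to 69173315 on chromosome 2, Abcc6 at 45616979 to 45679859 on chromosome 7 and Abcc4 at 118720103 to 118943924 on chromosome 14. On the plus strand lie Abcc2 at 43770631 to 43829179 on chromosome 19, Abcg2 at 58561505 to 58672661 on chromosome 6 and Abcc1 at 14179311 to 14293601 on chromosome 16. The RefSeq promoter table (build GRCm38.p6) held 6 of the 9 genes: Abcb11, Abcb1a, Abcb4, Abcc2, Abcc4 and Abcg2. The entries for the 3 canalicular transporters with the highest mean level per length are shown, as those that carry most of bile salt, conjugate and phospholipid secretion. Each is the run of 250 bases before the transcription start, 5' to 3' on the gene's strand.
Abcb11 (chr2:69342617-69342866, minus strand): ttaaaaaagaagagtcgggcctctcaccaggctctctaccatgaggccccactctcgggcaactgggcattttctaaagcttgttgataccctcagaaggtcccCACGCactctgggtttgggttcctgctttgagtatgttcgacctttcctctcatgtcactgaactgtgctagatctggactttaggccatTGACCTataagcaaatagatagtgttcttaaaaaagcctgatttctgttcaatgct
Abcc2 (chr19:43782058-43782307, plus strand): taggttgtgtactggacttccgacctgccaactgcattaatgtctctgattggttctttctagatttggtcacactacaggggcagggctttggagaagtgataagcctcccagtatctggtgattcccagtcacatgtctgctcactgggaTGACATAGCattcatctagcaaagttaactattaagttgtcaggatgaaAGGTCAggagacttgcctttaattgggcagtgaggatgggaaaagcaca
Abcb4 (chr5:8893471-8893720, plus strand): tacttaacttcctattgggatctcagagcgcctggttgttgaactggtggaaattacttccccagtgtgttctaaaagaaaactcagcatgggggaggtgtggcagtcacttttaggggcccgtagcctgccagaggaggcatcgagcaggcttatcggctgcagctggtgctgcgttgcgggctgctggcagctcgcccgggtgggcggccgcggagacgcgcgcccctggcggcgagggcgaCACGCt
Capitals mark matches, on either strand, to 4 motifs: TGANNNNGC (the core of the antioxidant response element that NRF2 binds), AGGTCA (a nuclear receptor half-site), GCGTG (the core that AhR binds) and TTNNGCAA (a core bound by C/EBP factors). No matches overlap in these 3 sequences. The half-site occurred in Abcb11 and in Abcc2, at 56 and 49 bases before the start, and in 14.0% of all 32851 promoters of this length in the table. The antioxidant core occurred once in Abcc2 and in 35.2% of all promoters, the GCGTG core once each in Abcb11 and Abcb4 and in 28.2%, and TTNNGCAA in none of the 3 and in 9.56%. A match is a run of letters and was not tested as a binding site.

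The transporters are described in 3 tiers of transcript level, a grouping made for description after the levels were seen. Levels of the 9 genes are compared with each other only per length, as CPM per kilobase of annotated exon (RPKM). Abcb11, which encodes the bile salt export pump BSEP, stood first, with a level of 95.7 ± 11.8 RPKM (mean ± SD over all 6 libraries), followed by Abcc2, which encodes the conjugate exporter MRP2, with 69.4 ± 3.47 RPKM. Abcc3, Abcb4, Abcc6 and Abcg2 formed the middle tier, with means over all 6 libraries of 13.8 RPKM for Abcb4, 13 RPKM for Abcc6 and 10.6 RPKM for Abcg2. Abcc3 differed between the groups, with 14.0 ± 3.93 RPKM with vehicle, where Abcb4 had 13.7 ± 0.632 RPKM, and 31.5 ± 4.17 RPKM with esculetin, where Abcb4 had 14.0 ± 1.79 RPKM (SD, n = 3). Its place above Abcb4 in the order of means thus comes mostly from the esculetin libraries. Abcb1a, Abcc4 and Abcc1 made up the lowest tier, with mean levels of 0.412, 0.291 and 0.0949 RPKM. The step between the tiers was largest below Abcg2, whose level was 4.74 ± 0.533 higher than that of Abcb1a on the log2 RPKM scale (mean ± SD of the difference, n = 6 libraries). The step from Abcc2 to Abcc3, between the upper tiers, was 1.74 ± 0.694 on this scale, close to the 1.64 ± 0.293 from Abcc4 to Abcc1 within the lowest tier. This closeness depends on the use of all exons as the length. By the longest annotated transcript, Abcc2 and Abcc3 had 75.2 and 25.9 RPKM, and Abcc4 and Abcc1 had 0.418 and 0.212 RPKM.

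Neighbours in this order were compared within libraries by an exact sign-flip permutation test (two-sided, Benjamini-Hochberg over the 8 pairs). The order was set from the means of the same libraries, so the test describes only how steadily each pair kept it, and no p is given for the pairs with Abcc3. Abcb11 was above Abcc2, Abcc6 above Abcg2, Abcg2 above Abcb1a and Abcc4 above Abcc1 in 6 of 6 libraries. Each of these had p = 0.0312 by the exact permutation test, the smallest p that 6 libraries allow, and an adjusted p of 0.05, so 0 pairs had an adjusted p under 0.05. Abcb4 and Abcc6 differed by 0.08 ± 0.128 log2 RPKM and kept their order in 4 of 6 libraries (exact permutation p = 0.188, adjusted p = 0.188), and Abcb1a was above Abcc4 in 5 of 6 (exact permutation p = 0.0625, adjusted p = 0.0833). Abcc3 was below Abcc2 in every library. It was above Abcb4 in all 3 esculetin libraries (26.9, 34.9 and 32.7 RPKM against 12.2, 13.9 and 15.8 RPKM) and in vehicle library 1 (18.5 against 14.4 RPKM). In vehicle libraries 2 and 3 it was below Abcb4, with 12.5 against 13.4 RPKM and 11.1 against 13.2 RPKM. The middle tier depends on the exon length used: with the longest annotated transcript in place of all exons, Abcb4 (27.5 RPKM) came before Abcc3 (25.9 RPKM) and Abcg2 (16.9 RPKM) before Abcc6 (15.2 RPKM). The other 5 genes kept their places.

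**Figure D1:**
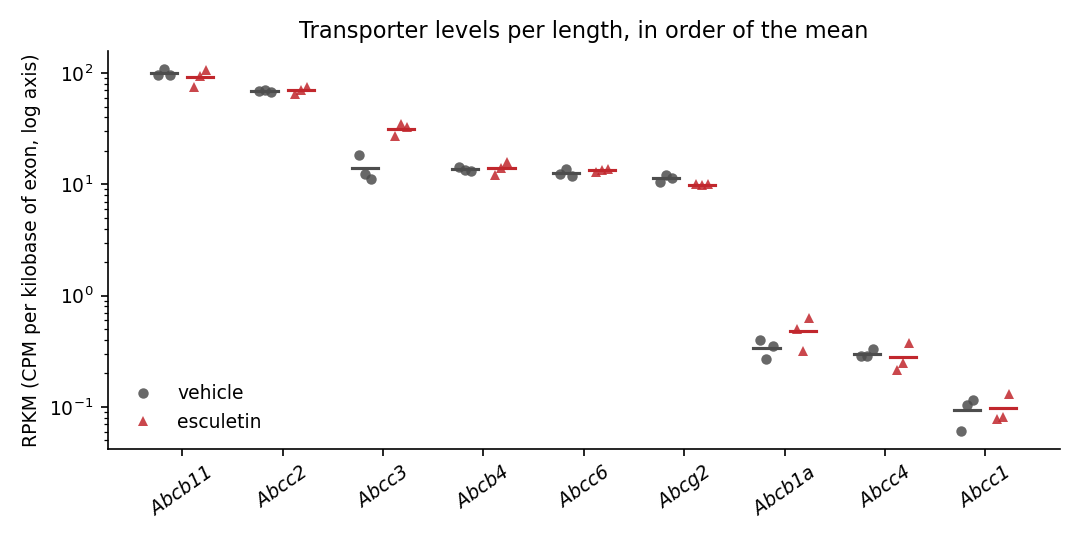
Level of each transporter per length (RPKM, log axis) in the 3 vehicle libraries (circles) and 3 esculetin libraries (triangles), with a line at each group's mean, ordered by the mean over all libraries. Abcb11 and Abcc2 lie above the middle tier, from Abcc3 to Abcg2, and Abcb1a, Abcc4 and Abcc1 lie below 1 RPKM in every library.

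Abcc3 encodes MRP3, the basolateral pump for glucuronide conjugates and some bile acids. It had 3240, 2431 and 1814 counts in vehicle libraries 1, 2 and 3 and 5157, 7236 and 6538 counts in the esculetin libraries. After normalization these were 110.3, 74.6 and 66.2 CPM with vehicle and 160.3, 209 and 195 CPM with esculetin. The groups did not overlap, with esculetin higher, and the vehicle library nearest to the esculetin group was replicate 1. The group means were 83.7 ± 23.4 CPM with vehicle and 188 ± 24.9 CPM with esculetin (SD, n = 3), a ratio of 2.25, and the fitted log2 fold change was 1.17 with a standard error of 0.177. This is the contrast that was known when the genes were chosen, so it is given as a description, with no test. Among the vehicle libraries Abcc3 varied more than any other gene of the 2 upper tiers, with a coefficient of variation of 28%, where counting alone gives 2.0%. The log2 fold change was 1.42 without vehicle replicate 1 and 1.03 without vehicle replicate 3, the highest and the lowest of the 6 fits that each left out 1 library, and lay between 1.14 and 1.2 over the main fit and 7 alternatives with all libraries.

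In each of the other 3 basolateral genes the groups overlapped. Abcc6 encodes MRP6, whose loss causes ectopic mineralization and which releases ATP from hepatocytes. Its libraries had 107, 117 and 102 CPM with vehicle and 111, 116 and 117 CPM with esculetin (log2 fold change 0.079, standard error 0.0779). Abcc4 encodes MRP4, an exporter of sulfated bile acids, cyclic nucleotides and conjugates that is known to be induced in cholestasis. It had 2.49, 2.49 and 2.84 CPM with vehicle and 1.87, 2.13 and 3.25 CPM with esculetin (log2 fold change -0.11, standard error 0.251), and the log2 fold change was -0.38 without esculetin library 3 and 0.049 without esculetin library 1. Both the lowest and the highest Abcc4 values were esculetin libraries. Abcc1 encodes MRP1, an exporter of glutathione conjugates that hepatocytes normally hold at low amounts. With only 28 to 68 counts per library it had 0.953, 1.6 and 1.79 CPM with vehicle and 1.21, 1.27 and 2.03 CPM with esculetin (log2 fold change 0.058, standard error 0.334). The log2 fold change of Abcc1 was -0.22 without esculetin library 3, -0.17 without vehicle library 1 and up to 0.23 without vehicle library 3, so single libraries set its direction. Counting alone gives a coefficient of variation of about 15.2% in the Abcc1 vehicle libraries, and the observed one was 30.2%. At this depth 3 counts correspond to 0.0865 to 0.109 CPM, so Abcc1 and Abcc4 were detected in every library.

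The groups overlapped for Abcc2, Abcb11 and Abcb4. Abcc2, through which conjugated bilirubin leaves the cell, had 605, 607 and 591 CPM with vehicle and 558, 612 and 650.4 CPM with esculetin. The vehicle libraries of Abcc2 lay within the range of the esculetin libraries, and the log2 fold change was 0.014 (standard error 0.0805). Abcb11 had 530.2, 604 and 528 CPM with vehicle and 419, 519 and 591 CPM with esculetin (log2 fold change -0.12, standard error 0.122). Esculetin library 1 was the lowest of all libraries for Abcb11, and without it the log2 fold change was 0.003. Abcb4 encodes MDR2, the floppase that delivers phosphatidylcholine to bile. It had 195, 181 and 179 CPM with vehicle and 166, 188 and 214 CPM with esculetin, and the esculetin libraries again covered the range of the vehicle libraries (log2 fold change 0.035, standard error 0.0987). Without esculetin library 3 the log2 fold change was -0.037 for Abcc2 and -0.06 for Abcb4, and for Abcc2 it was -0.008 with total counts, so neither direction was stable. In Abcb11, Abcc2 and Abcb4 alike, esculetin library 1 was the lowest and esculetin library 3 the highest of the esculetin libraries. The basolateral genes Abcc6, Abcc4 and Abcc1 had the same order, and Abcg2, Abcb1a and Abcc3 did not.

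Abcg2 and Abcb1a encode the broad-specificity drug pumps BCRP and MDR1. Abcg2 had 98.6, 115 and 109.7 CPM with vehicle and 94.8, 93.1 and 95.2 CPM with esculetin. Its groups did not overlap, with esculetin lower (108 ± 8.26 CPM against 94.3 ± 1.13 CPM, mean ± SD, n = 3). The log2 fold change of Abcg2 was -0.19 (standard error 0.0783). Abcb1a had 72, 54 and 60 counts with vehicle and 99, 68 and 130 counts with esculetin, or 2.45, 1.66 and 2.19 CPM against 3.08, 1.96 and 3.88 CPM. The groups overlapped through esculetin library 2, and the log2 fold change was 0.50 (standard error 0.286). The log2 fold change was 0.73 without that library and 0.27 without esculetin library 3. Reads of Abcb1a may be shared with its paralog Abcb1b, which had 0.545, 1.2 and 1.57 CPM with vehicle and 1.06, 1.53 and 1.85 CPM with esculetin (log2 fold change 0.43, standard error 0.399, unadjusted p = 0.312, edgeR). The 2 genes together had 3.20 ± 0.485 CPM with vehicle and 4.45 ± 1.16 CPM with esculetin (mean ± SD, n = 3), and these sums overlapped, with 2.85 to 3.76 against 3.49 to 5.73 CPM.

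**Figure D2:**
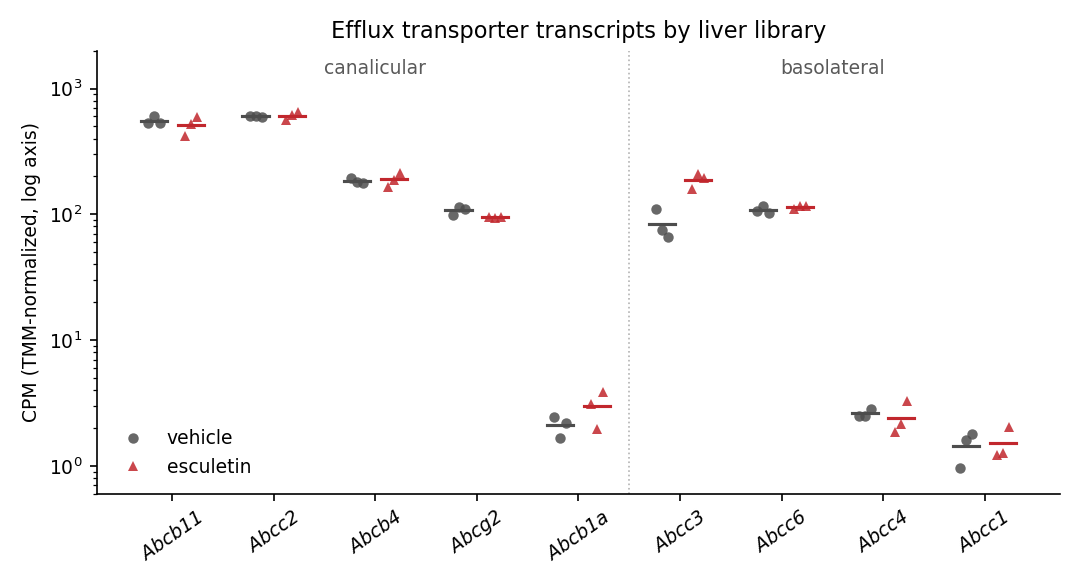
Normalized counts (CPM, log axis) of the 9 transporters in each vehicle library (circles) and esculetin library (triangles), with a line at each group's mean and the canalicular genes on the left. The groups are separate in Abcc3, where esculetin is higher, and narrowly in Abcg2, where esculetin is lower.

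The genes were called with the thresholds of the study, a fold change over 1.5 together with a p-value under 0.05, applied here to the unadjusted p-value of edgeR's quasi-likelihood test. All 9 transporters had enough counts to be tested, among 14433 genes. Of the 9, 1 was called, Abcc3, and 3.13% of all genes tested were called (1.37% higher and 1.76% lower with esculetin). The groups did not overlap in 2 of the 9, Abcc3 and Abcg2, and in 17.4% of all genes tested (9.2% higher and 8.24% lower with esculetin). After Benjamini-Hochberg adjustment, 0 of the 9 had a p-value under 0.05 in edgeR, as did 0.0416% of all genes, which is 6 genes. In the fit without esculetin library 2, Abcb1a was called as well. Nothing is read from these counts, because the contrast was known when the genes were chosen. The median log2 fold change was 0.035 over the 9 genes, 0.024 over the 8 without Abcc3 and -0.008 over all genes tested. The fold change was under 1.2 in either direction for 7 of the 9, with standard errors from 0.0779 for Abcc6 to 0.334 for Abcc1.

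The make-up of the transporter transcripts differed between the groups, and most in the share of Abcc3. Abcc3 made up 8.35%, 5.42% and 5.24% of the summed level per length of the 9 genes in the vehicle libraries and 13.3%, 14.8% and 12.9% in the esculetin libraries. Its share among the 4 basolateral genes was 51.2 ± 6.84% in the vehicle group and 69.5 ± 2.33% in the esculetin group (mean ± SD, n = 3). Abcc2, its counterpart for conjugates on the canalicular side, was at 5.15 ± 1.24 times the level of Abcc3 per length with vehicle and at 2.23 ± 0.197 times with esculetin. Abcc2 remained the higher of the pair in every library, at 2.01 to 6.12 times Abcc3. The summed level of the 8 genes without Abcc3 was 207 ± 9.54 RPKM with vehicle and 199.7 ± 23.6 RPKM with esculetin, and these ranges overlapped. These values restate the same contrast and carry no test.

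**Figure D3:**
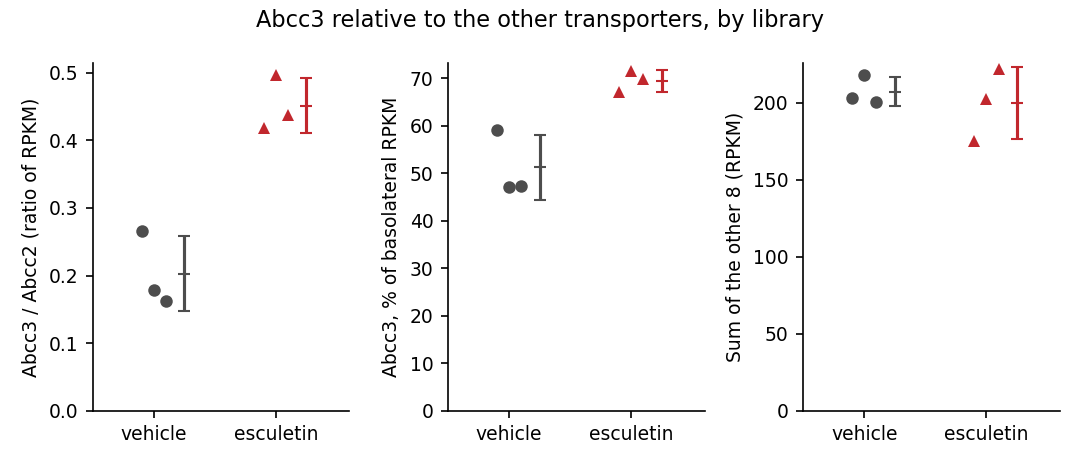
From left to right, the ratio of Abcc3 to Abcc2 per length, the percent of the summed basolateral RPKM that is Abcc3, and the summed RPKM of the other 8 transporters, for each vehicle library (circles) and esculetin library (triangles), with mean ± SD. The first 2 panels separate the groups, while in the third the libraries of both groups lie between 175 and 222 RPKM.

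In bulk liver, fewer cells of a type and less RNA per cell cannot be told apart, and MRP3 is also made by cholangiocytes. Of 7 cholangiocyte markers, 6 were tested and 0 were at 0 in all libraries, and the summed level of the 7 was 40.0 to 81.3 CPM with vehicle and 31.8 to 46.6 CPM with esculetin, most of it Spp1. Without Spp1 the sum was 5.28 to 5.76 CPM with vehicle and 5.91 to 8.04 CPM with esculetin. Krt19, the cytokeratin that defines these cells, had 0.817 to 1.17 CPM with vehicle and 1.03 to 1.5 CPM with esculetin (log2 fold change 0.24, standard error 0.311, unadjusted p = 0.459, edgeR). Of the 6 tested, Tspan8 was called higher (0.392 ± 0.106 against 0.793 ± 0.212 CPM, n = 3) and Spp1 lower, and these calls were lost in 5 and 2 of the alternatives that tested them. The part of these cells in the difference of Abcc3 was not tested. The summed markers of endothelial cells, Kupffer cells, stellate cells, lymphocytes and red blood cells overlapped between the groups, and of the 7, 7, 7, 5 and 5 markers tested in these lists, in that order, 0 were called lower and 3 higher, beside 1.76% lower and 1.37% higher over all genes. These 3, named after their values were seen, were Des, Cd79a and Hba-a2, whose calls were lost in 1, 6 and 6 of the alternatives that tested them. Tspan8 and Cd79a were also not tested where 10 counts were required in each library.

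The remaining members of the ABC family place the transporters in their wider group. Of 44 other ABC genes, 33 were tested, 1 was called higher and 0 lower, beside 1.37% higher and 1.76% lower over all genes, and their median log2 fold change was -0.002. At an unadjusted p-value under 0.05 in edgeR, 3 of the 33 were higher and 4 lower, beside 6.53% higher and 5.32% lower over all genes. The gene called was Abcc12, an ABCC family member of unclear function in liver, with 6, 4 and 12 counts in the vehicle libraries and 22, 21 and 18 in the esculetin libraries (log2 fold change 1.27, standard error 0.513, unadjusted p = 0.0334, adjusted p = 0.375, edgeR). It was no longer called in 5 of the 6 fits that each left out 1 library, in which its unadjusted p-value from edgeR lay between 0.0543 and 0.12. The 3 with the highest CPM, which is not corrected for length, included Abcd3, the peroxisomal fatty acid transporter, at 739 ± 105 CPM in the vehicle group and 659 ± 20.8 CPM in the esculetin group, and Abca1, the cholesterol and phospholipid exporter that starts HDL formation, at 253 ± 23.2 and 236 ± 16.8 CPM (mean ± SD, n = 3). Abca6, a lipid transporter family member, was the third, at 213 ± 16.5 and 213 ± 13.6 CPM. The log2 fold changes were -0.17 for Abcd3, -0.10 for Abca1 and -0.002 for Abca6, and none of these 3 was called.

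Partners of bile secretion were examined as a list of 15 genes, of which 14 were tested. The thresholds were passed by 0 of the 14, beside 3.13% of all genes tested. At an unadjusted p-value under 0.05 in edgeR, 2 genes were higher and 1 lower, where this share over all genes was 6.53% higher and 5.32% lower. These 3, named after their values were seen, were Abcg8, a subunit of the canalicular cholesterol exporter (log2 fold change 0.34, standard error 0.132, unadjusted p = 0.0282, adjusted p = 0.358, edgeR), Rab11a, a GTPase of the recycling endosomes that carry pumps to the canalicular membrane (0.25), and its motor Myo5b (-0.23). Of these, an unadjusted p-value under 0.05 held in all 13 alternatives for Rab11a, and it was lost without vehicle library 1 or esculetin library 1 or 3 for Abcg8 (0.0649 to 0.0772, edgeR). With the low-count filter removed, the adjusted p of Abcg8 in edgeR was 0.0392, in a fit that gave 477 genes an adjusted p under 0.05, against 6 in the main fit. Myo5b lost an unadjusted p-value under 0.05 with DESeq2 (0.0634) and, in edgeR, without the filter (0.0759) and in 4 of the 6 fits that left out 1 library. Abcg5, the obligate partner of Abcg8, had 89.1 ± 11.7 CPM with vehicle and 105 ± 10.4 CPM with esculetin. The basolateral bile acid exporter OST, named for its role, had few counts, with 24 counts of Slc51a and 64 of Slc51b over all 6 libraries. The partners with the highest CPM, not corrected for length, were Tmem30a, the subunit of the canalicular flippase (365 ± 12.7 and 349.8 ± 33.7 CPM with vehicle and esculetin), Rdx, which tethers MRP2 to actin (283 ± 21.1 and 274 ± 4.72 CPM), and Nherf1, a scaffold of apical transporters (193 ± 2.60 and 213 ± 5.67 CPM), and 0 of these 3 were called.

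**Figure D4:**
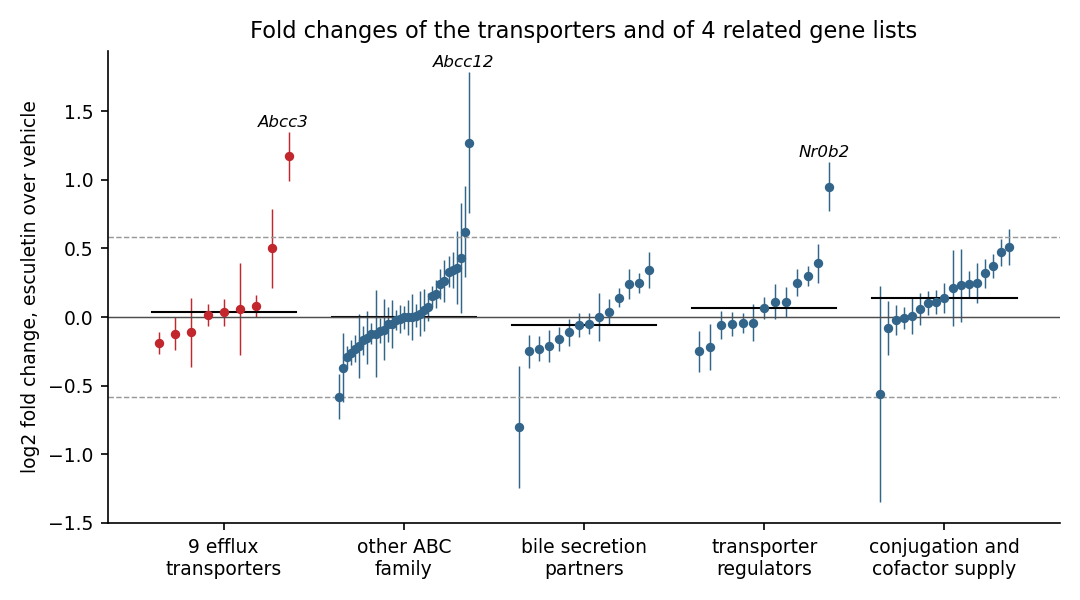
Log2 fold change of esculetin over vehicle (± standard error) for the 9 transporters and the tested genes of 4 related lists, with a line at each list's median and dashed lines at a fold change of 1.5. The 3 labelled genes, Abcc3, Abcc12 and Nr0b2, are those that passed the thresholds.

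Regulators of the transporter genes were given by a list of 13, all of which were tested. Nr0b2, which encodes the repressor SHP that FXR induces, was called higher, and 0 were called lower, beside 1.37% higher and 1.76% lower over all genes. It had 15.3, 21.2 and 11.8 CPM with vehicle and 33.1, 32.0 and 28.4 CPM with esculetin, so the groups did not overlap (log2 fold change 0.95, standard error 0.179, unadjusted p = 0.000393, adjusted p = 0.132, edgeR). Nr0b2 was called in every fit run. Its adjusted p was 6.42e-05 with DESeq2 and 4.21e-09 in edgeR with the low-count filter removed, and lay between 0.0793 and 0.277 in the other alternatives. Over all genes, adjusted p-values under 0.05 numbered 193 with DESeq2 and 477 with the filter removed, against 6 in the main fit. At an unadjusted p-value under 0.05, 4 of the 13 were higher and 0 lower, beside 6.53% higher and 5.32% lower over all genes. The other 3, named after their values were seen, were Nr1i2, the xenobiotic receptor PXR (76.3 ± 2.49 against 94.0 ± 3.71 CPM, log2 fold change 0.30), Nr1i3, the xenobiotic receptor CAR (22.7 ± 4.86 against 29.7 ± 2.04 CPM, 0.39), and Keap1, the NRF2 inhibitor (29.3 ± 1.86 against 34.8 ± 3.51 CPM, 0.25). Their adjusted p-values from edgeR were 0.172, 0.345 and 0.368. An unadjusted p-value under 0.05 held in all 13 alternatives for Nr1i2. It was lost for Nr1i3 without vehicle library 3 or esculetin library 2 or 3 (0.0512 to 0.0684, edgeR), and for Keap1 with total counts (0.0543, edgeR) and without vehicle library 3 or esculetin library 1 or 2 (0.0825 to 0.12, edgeR). With the low-count filter removed Nr1i3 had an adjusted p of 0.0482 in edgeR. The groups overlapped for the other transcription factors given here. Nr1h4, which encodes FXR, had 142 ± 16.3 and 136 ± 10.1 CPM, Nfe2l2, which encodes NRF2, had 68.4 ± 15.1 and 57.7 ± 5.88 CPM, and Ahr had 51.0 ± 3.46 and 55.2 ± 10.5 CPM with vehicle and esculetin (mean ± SD, n = 3). The 2 regulators with the highest CPM, Hnf4a and Rxra, had log2 fold changes of 0.11 and -0.045 and were not called.

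Enzymes that make the conjugates, or supply their cofactors, formed a list of 17 genes, all tested. Of the 17, 0 passed both thresholds in the main fit, beside 3.13% of all genes tested. At an unadjusted p-value under 0.05 in edgeR, 5 were higher and 0 lower, beside 6.53% higher and 5.32% lower over all genes. These 5 were Sult1a1, Ugp2 and, named after their values were seen, Sult1d1, Papss2 and Ugdh. Their relatives Papss1 and Sult1b1 did not pass, with log2 fold changes of -0.021 and 0.25 and unadjusted p-values of 0.854 and 0.126 in edgeR. Sult1a1, a phenol sulfotransferase, had 261, 207 and 215 CPM with vehicle and 309, 332 and 309.5 CPM with esculetin (log2 fold change 0.47, standard error 0.0978, unadjusted p = 0.000726, adjusted p = 0.136, edgeR). The adjusted p of Sult1a1 was 0.00254 with DESeq2, 0.0002 in edgeR with the low-count filter removed and 0.0301 without vehicle library 1, and lay between 0.132 and 0.473 in the other alternatives. Sult1d1, another sulfotransferase, had 223 ± 43.8 against 318 ± 15.9 CPM (log2 fold change 0.51), and Papss2, which makes the sulfate donor, had 195 ± 26.0 against 243 ± 19.9 CPM (0.32). Ugdh, which makes UDP-glucuronic acid, had 109.9 ± 10.8 against 142 ± 4.27 CPM (0.37), and Ugp2, which makes its precursor UDP-glucose, had 594 ± 33.9 against 702 ± 68.1 CPM (0.24). The unadjusted p-value of Ugp2 from edgeR was 0.0261, but 0.0512 with total counts, 0.0552 with the replicate block and 0.0677 to 0.104 in 4 of the 6 fits that left out 1 library (vehicle 2 or 3, esculetin 2 or 3). The adjusted p-values of Sult1d1, Papss2, Ugdh and Ugp2 from edgeR were 0.203, 0.294, 0.17 and 0.351. An unadjusted p-value under 0.05 held in all 13 alternatives for Sult1a1, Sult1d1 and Ugdh, while that of Papss2 from edgeR was 0.0633 without vehicle library 2 and 0.0552 without esculetin library 1. With DESeq2 the adjusted p was 0.0134 for Sult1d1 and 0.028 for Ugdh, and in edgeR with the low-count filter removed it was 0.000101, 0.0111 and, for Papss2, 0.0454. The median log2 fold change of the 17 genes was 0.139, against -0.008 over all genes. Counts of the Ugt1a genes in this list are uncertain, since they share exons.

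**Figure D5:**
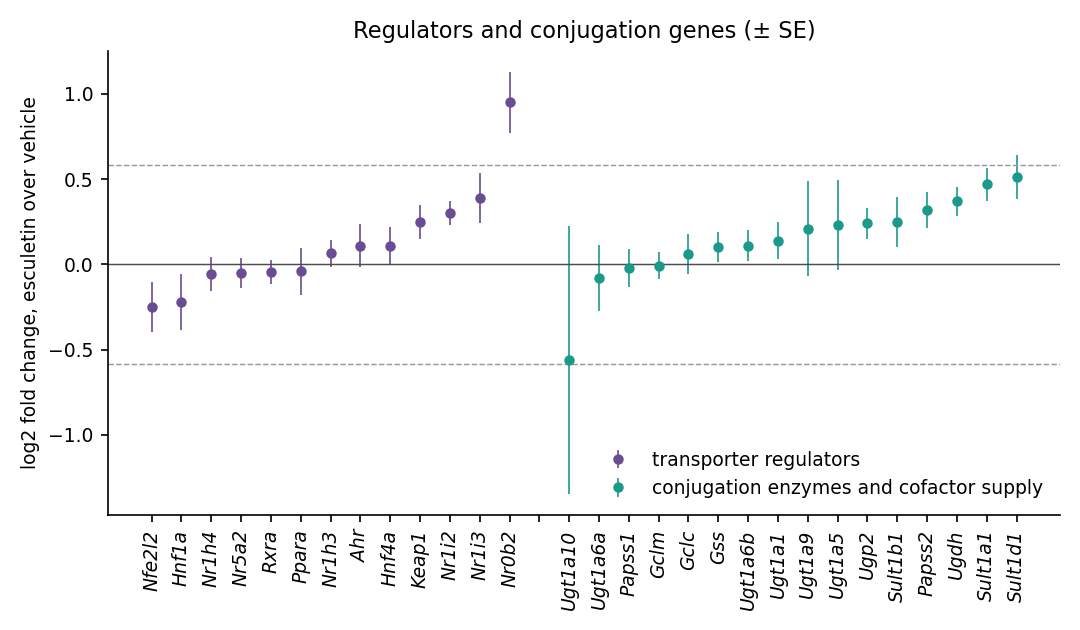
Log2 fold change of esculetin over vehicle (± standard error) for the tested transporter regulators and the conjugation and cofactor genes, less 1 gene that is not shown, in order within each list, with dashed lines at a fold change of 1.5. Nr0b2 lies above the upper line, and Sult1d1 and Sult1a1 lie just under it.

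The genes whose pattern over the 6 libraries was most like that of Abcc3 were found by Pearson's correlation of log2 CPM, among 12177 genes with a mean of at least 1 CPM. They were Akip1, a protein kinase A binding protein (r = 0.9955), Hibadh, an enzyme of valine catabolism (0.9947), Apoc1, an apolipoprotein (0.9938), Prdx6, a peroxiredoxin (0.9931), and Pex3, a peroxisome assembly factor (0.993). The 6 points fall into the 2 groups, so r depends mostly on the difference between the groups, and no test was made. The sizes differed: Abcc3 had a ratio of 2.25 between the group means, Akip1 of 1.53, Apoc1 of 1.25, Hibadh of 1.21, Prdx6 of 1.18 and Pex3 of 1.09. Of the other transporters, Abcb1a and Abcc6 had an r of 0.55 with Abcc3 over the 6 libraries and Abcg2 had an r of -0.93.

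Reads at some of these genes could belong to another gene. The exons of 8 of the 9 transporters overlap those of other annotated genes on the opposite strand, 9 pairs in all, and how strand was treated in counting is not given in the sources used here. Of these 9 genes 5 were analysed, and the largest count among those was that of Crot, with up to 18544 counts in a library, which shares 105 bases of exon with Abcb4. Abcc3 shares 622 bases with the long noncoding RNA Gm51871, which was not analysed here.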

How the data were processed

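The authors isolated liver RNA with Trizol, prepared NEBNext Ultra libraries, mapped the paired-end reads with HISAT 2.2.1 to GRCm39 and counted them per gene with featureCounts, and the deposited values are whole-number counts without normalization. The annotation release, the strand setting and the treatment of multi-mapping reads are not given in the sources used here. Libraries were grouped by their titles. The count columns of the vehicle libraries are named for the high-fat diet, which all mice received, and were matched to the vehicle titles by having no dose and by the replicate number. Symbols, coordinates and exon lengths came from GENCODE (GRCm39), where 54749 of 55357 identifiers were found. Replicates of a group differed by a chi-square of at least 26.5 per gene, far over counting noise, and each was kept as a sample.

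Counts were filtered with filterByExpr, normalized with TMM and tested in edgeR 4.0.16 (R 4.3.3, quasi-likelihood F test), with Benjamini-Hochberg adjustment over all 14433 genes kept. Standard errors are the absolute log2 fold change over the root of the F statistic. The p-values measure the spread between these pooled libraries only. RPKM is CPM per kilobase of the union of exons. The fit was tested on simulated counts. Results were recomputed with DESeq2 1.42.0, with limma-voom (limma 3.58.1), with normalization by DESeq2 size factors or by total counts, with the low-count filter removed or set to 10 counts in each library, with single libraries omitted, and with the replicate number as a block. The transporters, gene lists and tests were chosen with earlier results of these data known. By rule, the genes named were the 9 transporters, Abcb1b, every gene called and the 3 with the highest CPM in each of the 4 related lists, and the 5 genes most like Abcc3. The values of 1 gene that the rule names are not reported here. Any other gene was named after its values were seen.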

Additional observations from a re-analysis of the deposited data

How the results depend on the processing

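What caused these differences was not tested. In the main analysis 452 genes were called, against 776 with the low-count filter removed and 411 to 588 with a library omitted. Adjusted p-values under 0.05 numbered 6, against 193 with DESeq2, 477 with the filter removed and 2 to 45 with a library omitted (45 without vehicle replicate 1, 2 without vehicle replicate 2 and 15 without vehicle replicate 3). Of the transporters 1, Abcc3, was called with all libraries and 1 to 2 with a library omitted, Abcb1a being added without esculetin replicate 2; these counts repeat the contrast known when the genes were chosen and support nothing. In the 4 related lists 2 genes were called higher and 0 lower, and Nr0b2 was among them in every alternative. With 10 counts required in each library, 1 was higher and 1 lower, since Abcc12 was not tested and Abca7 was called, and Abca7 also made the number lower 1 with total counts. Omitting a library gave 1 to 3 higher and 0 to 1 lower. The 3 higher were Abcd2, Nr0b2 and Ugt1a5 without vehicle replicate 1, and Abcc12, Nr0b2 and Sult1d1 without vehicle replicate 3. Only 1 was higher without vehicle replicate 2 or any single esculetin replicate. The gene called lower was Abca7 without vehicle replicate 2 or esculetin replicate 1, and Abca14 without vehicle replicate 3. By the longest transcript, 5 of the 9 transporters kept their place in the order of levels. In the esculetin libraries the coefficient of variation was 30.4% for Abcc1, 30.5% for Abcc4 and 32.5% for Abcb1a, where counting alone gives 14.1%, 11.1% and 10.1%.

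For replicates 1, 2 and 3, departures from the group correlated at -0.0689, -0.0108 and 0.00274 between the vehicle and the esculetin library. Each correlation is a single value for a pair of libraries, so whether a pair shared a batch in some genes was not tested. With the replicate block, 399 genes were called, 15 had an adjusted p-value under 0.05 and 1 transporter, Abcc3, was called.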
